A study of Mus musculus with 27 samples.

Results

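Complex I, the NADH:ubiquinone oxidoreductase of the inner mitochondrial membrane, was followed in mouse adipocytes given rosiglitazone. Its genes were chosen by symbol: every gene with a probe set of its own whose symbol begins with Nduf, then a, b, c, s, v, af or ab, then a number, which gave 43 of 18781 genes measured. They comprised 6 core subunits, 9 accessory subunits of the matrix arm, 18 accessory subunits of the membrane arm, the acyl carrier protein Ndufab1, 7 assembly factors, and Ndufa4 with its paralog Ndufa4l2. Ndufa13, Ndufb1 and Ndufaf8 were not analysed here. Where a gene had several probe sets, as 7 members did, the one with the highest mean was taken.

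Complex I takes electrons from NADH, passes them along a chain of iron-sulfur clusters to ubiquinone, and couples this to proton pumping across the membrane. The core subunits carry the cofactors and the pumps, the accessory subunits surround them, and the assembly factors join the finished modules without remaining in the enzyme. The parts described here are encoded in the nucleus, and the membrane-bound pumps are encoded by mitochondrial DNA. The roles given below are known mainly from the human and bovine enzymes. Fat cells use the respiratory chain to burn fatty acids and to keep up the supply of ATP for lipid synthesis.

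The cells were 3T3-L1, a mouse fibroblast line that turns into fat cells when given insulin, dexamethasone and isobutylmethylxanthine. Mature adipocytes received 1 µM rosiglitazone, an antidiabetic drug that activates the nuclear receptor PPARγ, dissolved in DMSO, for 30 min or for 1, 2, 6, 12, 24, 36 or 48 h. The control was a group labelled as having no treatment at time 0. Each of the 9 groups had 3 arrays (Affymetrix Mouse Gene 1.1 ST), 27 in all. The series' design text mentions DMSO, but no array in these files is labelled as a vehicle control, so the drug, its solvent and time in culture cannot be told apart. All 8 comparisons use the same 3 untreated arrays. The labels do not say whether the 3 arrays of a group came from separate cultures, so a p-value here speaks only of the scatter of 3 arrays a group, part or all of which may be technical.

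Values are deposited log2 intensities, and a change is a difference of group means on that log2 scale, given with its standard error (SE) and n = 3 arrays a group. A gene was called when its p from limma, adjusted by Benjamini-Hochberg over all 18781 genes, was below 0.05. The values ran from 1.67 to 13.19, the medians of the arrays from 4.02 to 4.13, and no pair of arrays held identical values. Of the 43 members, 42 had a mean above 4.76, the median gene mean; Ndufa4l2 was below it. The adipocyte markers Adipoq, Fabp4 and Plin1 had mean log2 intensities of 11.95, 11.62 and 11.55. Preadipocyte and fibroblast markers were also bright, with Dlk1 at 9.98, Col1a1 at 9.59, Pdgfra at 7.95 and Thy1 at 7.80. The 5 macrophage markers ran from Adgre1 at 2.67 to Cd68 at 4.97, the 3 endothelial ones from Kdr at 2.79 to Pecam1 at 3.53 and the 3 of muscle from Myh4 at 3.05 to Acta1 at 4.80; Cd68 and Acta1 lay just above the means of 51.4% and 50.3% of all genes and the others below the middle.

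The upstream region of Ndufaf4, the member with the largest change, holds the core element of the factor NRF1, a known activator of respiratory genes, and is shown here with those of Ndufa8 and Ndufa11. The windows are RefSeq's, on the GRCm38.p6 build, and end before the annotated start site; the capitals mark the match to GCGCATGCG, on the other strand as CGCATGCGC in Ndufa8 and on both strands, overlapping, in Ndufaf4 and Ndufa11.
Ndufaf4, chr4:24897935-24898014, plus strand: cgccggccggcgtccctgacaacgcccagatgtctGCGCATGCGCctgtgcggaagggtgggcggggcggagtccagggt
Ndufa8, chr2:36049339-36049382, minus strand: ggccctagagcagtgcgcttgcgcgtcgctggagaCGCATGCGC
Ndufa11, chr17:56717667-56717746, plus strand: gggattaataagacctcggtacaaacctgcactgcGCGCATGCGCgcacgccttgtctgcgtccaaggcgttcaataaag
All 3 genes were called higher from 12 h on or earlier, while Ndufaf3, the member with the second largest change at 36 h, had no match to this core. RefSeq's table held 40 windows for 38 of the members, each from 250 bases before to 50 after the start. The NRF1 core was found in 4 of them, or 10%, against 1.75% of all 32851 windows; the other member was Ndufaf5, with the match 17 bases after its start. The YY1 letters AAGATGGCG were found in 5 member windows (12.5%, against 1.4% of all windows): those of Ndufc1, Ndufa9, Ndufs7, Ndufs6 and Ndufs4, of which Ndufa9, Ndufs7 and Ndufs4 were called at no time. The ETS letters CCGGAAG were found in 5 (12.5%, against 8.86%), the letters AGGNCAAAG, a stretch of the PPAR element, in 2 (5%, against 2.04%), and the ERR element TCAAGGTCA in 0 (against 0.423%). Both strands were searched. A match describes the letters only and is neither a shown binding site nor a cause.

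Complex I genes rose late. No member was called at 30 min or 1 h. The number that rose was 1 after 2 h, 5 after 6 h, 15 after 12 h, 21 after 24 h, 28 after 36 h and 23 after 48 h, and no member was called lower at any time. Of all genes, 0.0479% were called higher after 30 min, 0.474% after 1 h, 3.04% after 2 h, 8.39% after 6 h, 9.48% after 12 h, 10.1% after 24 h, 10.9% after 36 h and 12.6% after 48 h. The shares called lower at these times were 0%, 0.516%, 2.87%, 8.18%, 9.38%, 10.5%, 10.5% and 11.4%. Nearly all members lie above the median gene in intensity, and among the genes that do, 19.3% were called higher at 36 h. At unadjusted p below 0.05, 2 members were lower at each time up to 6 h and 0 from 12 h on. Of all 18781 genes, 662, 1110, 1617 and 2704 were lower by that measure at 30 min, 1 h, 2 h and 6 h. At 12, 24, 36 and 48 h these numbered 2732, 2892, 2870 and 2966. Whether the members differ from all genes in this was not tested.

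The changes were small. The median change of the 43 members was -0.026 after 30 min, -0.014 after 1 h, 0.010 after 2 h, 0.066 after 6 h, 0.15 after 12 h, 0.18 after 24 h, 0.27 after 36 h and 0.19 after 48 h, all on the log2 scale. Over all genes the median change lay between -0.013 and 0.013 at every time. At 36 h the members ranged from -0.12 ± 0.076 for Ndufaf7 to 0.82 ± 0.090 for Ndufaf4 (log2 change ± SE), and 41 of the 43 were above 0. A change of 1.5-fold or more was called for Ndufaf4 alone. The moderated F-test over all 8 times called 33 of the 43 members, against 40.5% of all genes.

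The count at 6 h was 2 without the untreated replicate 1 and 2 without the 6 h replicate 2, but 10 with each array centred on its median and 8 among genes above the median mean. The count at 48 h was 14 without the 48 h replicate 1. With the replicate number as a block, fewer members were called at 6 h, at 48 h and by the F-test, as given in the last section. Leaving out any 1 of the 27 arrays moved the counts at 12, 24 and 36 h by less than 1.5 times.

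**Figure D1:**
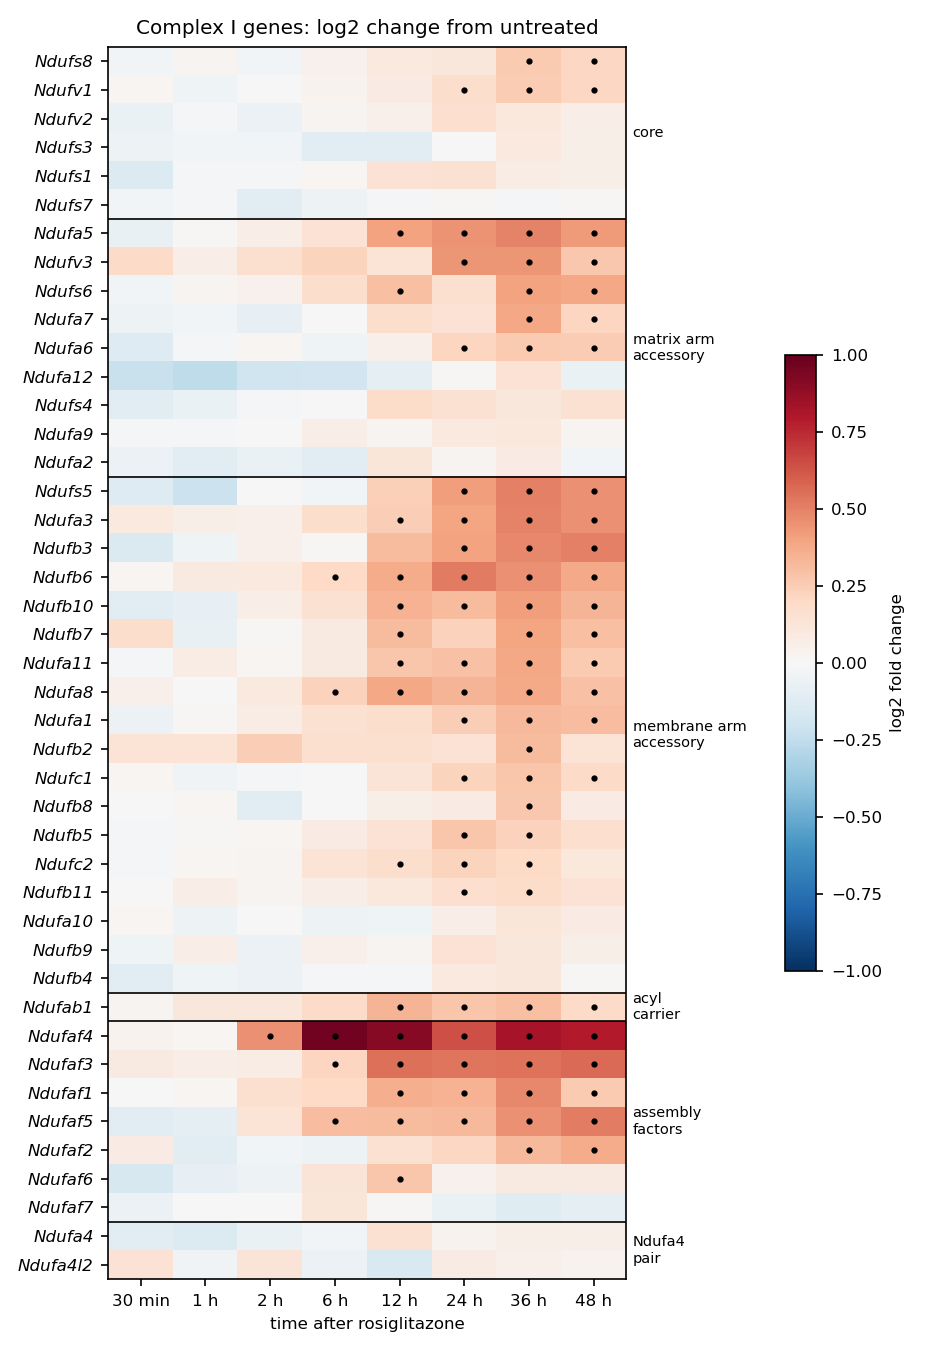
Log2 change from untreated of the 43 complex I genes (rows, grouped by role) at the 8 times after rosiglitazone (columns), with red higher and blue lower; a dot marks an adjusted p below 0.05. Dots are absent at 30 min and 1 h, and number 28 at 36 h, all on red cells.

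The groups were also compared array by array. At 24 h, all 3 treated arrays lay above all 3 untreated arrays for 30 of the 43 members (17.3% of all genes), at 36 h for 32 (15.8%) and at 48 h for 26 (19.1%). At 30 min that held for 2 members (8.41% of all genes), and all 3 treated arrays lay below the untreated ones for 5 (7.04%). From 24 h on, no member had all 3 treated arrays below the untreated ones, against 17.9%, 15.4% and 17% of all genes at 24, 36 and 48 h.

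Among the assembly factors, 5 of 7 rose at 36 h: Ndufaf1, Ndufaf2, Ndufaf3, Ndufaf4 and Ndufaf5. This role held the earliest and the largest changes of the members, with 1 of 7 called after 2 h, 3 after 6 h, 5 after 12 h, 4 after 24 h and 5 after 48 h. Its median change was 0.46 at 36 h.

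Ndufaf4 and Ndufaf3 bind each other and the module that will hold the quinone site. Ndufaf4 had a log2 intensity of 6.63, 6.40 and 6.65 in the untreated arrays, 6.58, 6.46 and 6.73 at 30 min, 6.54, 6.56 and 6.63 at 1 h and 6.96, 6.94 and 7.14 at 2 h. The later Ndufaf4 arrays had 7.45, 7.57 and 7.55 at 6 h, 7.46, 7.64 and 7.31 at 12 h, 7.23, 7.27 and 7.11 at 24 h, 7.43, 7.50 and 7.21 at 36 h and 7.39, 7.34 and 7.33 at 48 h. Its 3 arrays at every time from 2 h on lay above all untreated arrays, while those of 30 min and 1 h overlapped them. Ndufaf4 rose by 0.46 ± 0.090 after 2 h (adjusted p = 0.00169, limma), when no other member was called. It was higher by 0.96 ± 0.090 after 6 h (adjusted p = 6.53e-08), a 1.95-fold increase, and by 0.79 ± 0.090 after 48 h (adjusted p = 2.5e-07). Compared directly, the 6 h arrays exceeded those of 2 h by 0.51 ± 0.090 (adjusted p = 0.000509), a step that 4.27% of all genes made upwards.

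Ndufaf3 had a log2 intensity of 8.40, 8.46 and 8.33 in the untreated arrays, 8.56, 8.51 and 8.39 at 30 min, 8.43, 8.48 and 8.47 at 1 h and 8.43, 8.42 and 8.55 at 2 h. The later Ndufaf3 arrays had 8.59, 8.68 and 8.57 at 6 h, 8.87, 8.97 and 8.999 at 12 h, 8.89, 8.87 and 9.04 at 24 h, 9.06, 8.84 and 8.91 at 36 h and 8.96, 8.98 and 8.95 at 48 h. Its arrays stood clear of the untreated ones from 6 h on and varied little among 12, 24, 36 and 48 h. Ndufaf3 rose by 0.22 ± 0.067 after 6 h (adjusted p = 0.0257) and by 0.55 ± 0.067 after 12 h (adjusted p = 1.27e-06). The step between these 2 times was 0.34 ± 0.067 (adjusted p = 0.00974), one of the upward calls that 0.564% of genes received. The 6 h call of Ndufaf3 ended when the untreated replicate 1 or 3 or the 6 h replicate 2 was left out (0.22, 0.18 and 0.18), after further quantile normalization (0.17), with the 6 arrays compared alone, and against the 30 min arrays (0.12). No member was called between 12 and 24 h, where 2.93% of genes were called in either direction, nor between 24 and 36 h (0.154%) or 36 and 48 h (0.016%). At unadjusted p below 0.05, 6, 5 and 0 members were higher over these 3 steps and 2, 0 and 6 lower. Of all 18781 genes, 1385 were higher and 1615 lower by that measure from 12 to 24 h. From 24 to 36 h these numbered 1174 and 829. Between 36 and 48 h, 827 genes were lower and more than that were higher. From 36 to 48 h the change lay below 0 for 34 of the 43 members, with a median of -0.050, against 0.0057 over all genes. Whether the members differ from all genes over these steps was not tested.

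Ndufaf5 adds a hydroxyl group to an arginine of the core subunit Ndufs7. Ndufaf5 had a log2 intensity of 4.85, 5.01 and 5.18 in the untreated arrays, 4.91, 4.93 and 4.89 at 30 min, 4.95, 5.01 and 4.80 at 1 h and 5.28, 5.15 and 5.02 at 2 h. The later Ndufaf5 arrays had 5.28, 5.33 and 5.36 at 6 h, 5.48, 5.30 and 5.22 at 12 h, 5.29, 5.38 and 5.34 at 24 h, 5.47, 5.41 and 5.53 at 36 h and 5.47, 5.46 and 5.65 at 48 h. Its untreated arrays were spread widely, and every array from 6 h on was above them. Ndufaf5 rose by 0.31 ± 0.083 after 6 h (adjusted p = 0.00989) and 0.51 ± 0.083 after 48 h (adjusted p = 3.77e-05). Without the untreated replicate 1 its calls at 6, 12 and 24 h ended (0.23, 0.24 and 0.24), and its 12 h call also ended without the 12 h replicate 1 (0.24).

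Ndufaf1 belongs to the complex that builds the first stretch of the membrane arm. Ndufaf1 had a log2 intensity of 8.44, 8.40 and 8.44 in the untreated arrays, 8.52, 8.40 and 8.38 at 30 min, 8.39, 8.48 and 8.47 at 1 h and 8.47, 8.57 and 8.71 at 2 h. The later Ndufaf1 arrays had 8.43, 8.67 and 8.78 at 6 h, 8.85, 8.81 and 8.72 at 12 h, 8.81, 8.78 and 8.73 at 24 h, 9.02, 8.88 and 8.81 at 36 h and 8.75, 8.69 and 8.63 at 48 h. The treated arrays overlapped the untreated ones at 30 min, 1 h and 6 h. Ndufaf1 was called at 12, 24, 36 and 48 h, with its largest change after 36 h (0.48 ± 0.078, adjusted p = 4.5e-05). Its 48 h call (0.26 ± 0.078) ended without the untreated replicate 2 or the 48 h replicate 1 (0.25 and 0.23). Ndufaf2, a paralog of the subunit Ndufa12 that holds its place during assembly, rose at 36 and 48 h (0.33 ± 0.089 and 0.37 ± 0.089), the former call lost without the untreated replicate 2 or the 36 h replicate 1 (0.27 for each). Ndufaf6 was called at 12 h alone (0.28 ± 0.087, adjusted p = 0.0239), a call that ended without the untreated replicate 2 or 3 or the 12 h replicate 1 or 3 (0.22 to 0.29). Ndufaf7, a mitochondrial methyltransferase, was called at no time and lay at -0.12 ± 0.076 at 36 h.

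**Figure D2:**
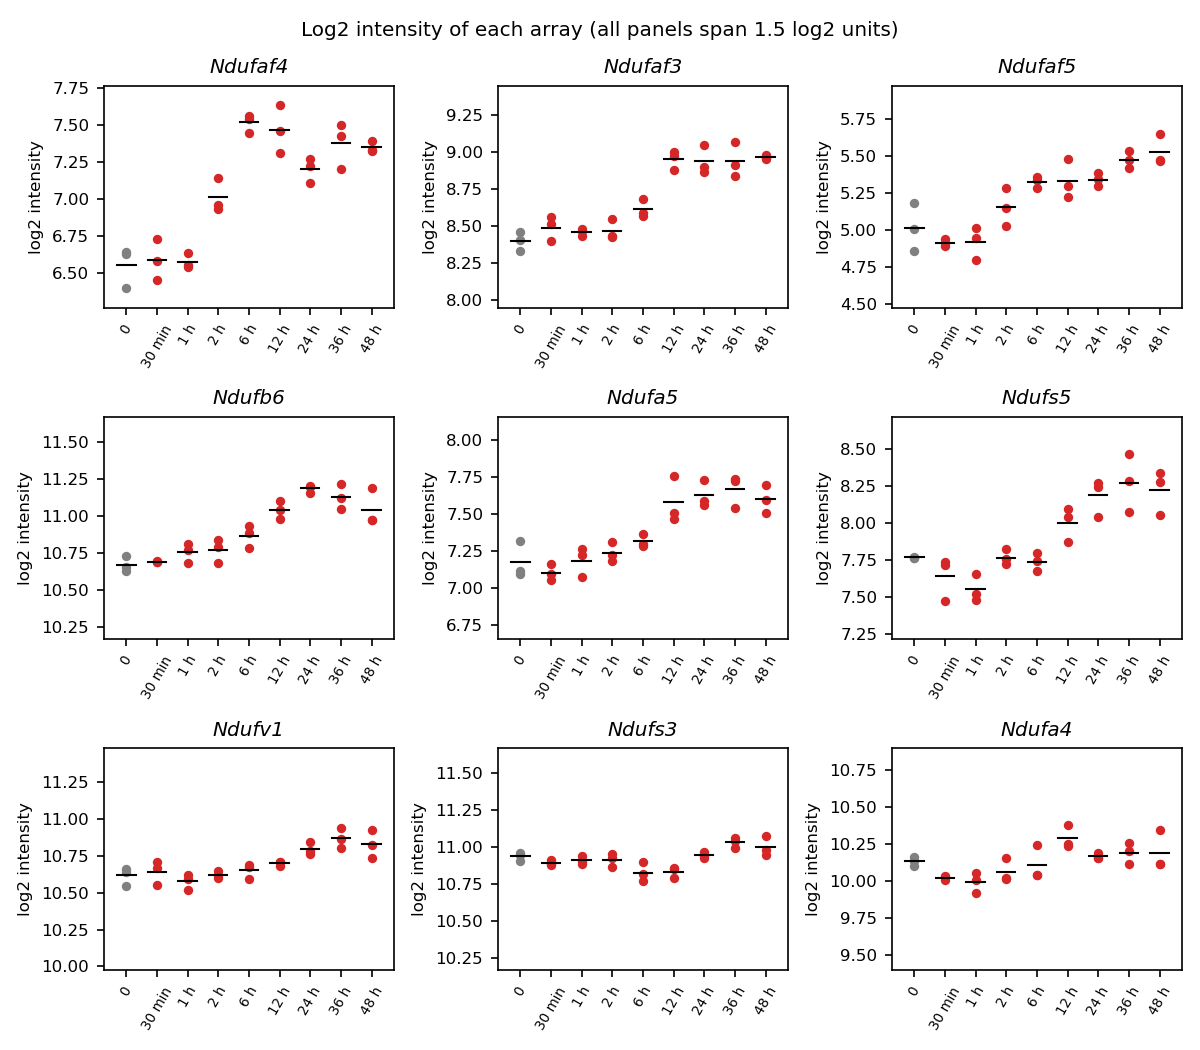
Log2 intensity (vertical axis, spanning 1.5 log2 units in every panel) of each array for 9 members, with 3 points a group and a line at the group mean; 0 marks the untreated arrays in grey and the times after rosiglitazone are in red. The 3 Ndufaf4 arrays at 6 h all sit above the 3 untreated ones, while Ndufs3 and Ndufa4 were called at no single time.

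Of the 6 core subunits, 2 rose at 36 h, Ndufv1 and Ndufs8, and these also rose at 48 h. The median change of the core subunits was 0.10 at 36 h, below that of each accessory group.

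Ndufv1 binds the flavin that takes the electrons from NADH. Ndufv1 had a log2 intensity of 10.55, 10.64 and 10.66 in the untreated arrays, 10.66, 10.71 and 10.55 at 30 min, 10.52, 10.59 and 10.62 at 1 h and 10.65, 10.60 and 10.62 at 2 h. The later Ndufv1 arrays had 10.59, 10.67 and 10.69 at 6 h, 10.68, 10.70 and 10.71 at 12 h, 10.78, 10.76 and 10.84 at 24 h, 10.94, 10.80 and 10.86 at 36 h and 10.92, 10.82 and 10.74 at 48 h. Its arrays lay above the untreated ones from 12 h on and overlapped them at every earlier time. Ndufv1 was called after 24 h (0.18 ± 0.060, adjusted p = 0.0347), 36 h (0.25 ± 0.060, adjusted p = 0.00308) and 48 h (0.21 ± 0.060, adjusted p = 0.0117). The 24 h call ended without any 1 of 5 arrays, the untreated replicates 1 and 2 and the 24 h replicates 1, 2 and 3, with changes of 0.14 to 0.20. It also ended with the replicate number as a block, with the 6 arrays compared alone, after further quantile normalization (0.14) and against the 30 min arrays (0.16). The 36 h call ended with the 6 arrays compared alone and without replicate 1 of every group. The 48 h call ended without the untreated replicate 1 or the 48 h replicate 1 (0.17 and 0.16) and with the 6 arrays compared alone, among other settings.

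Ndufs8 holds iron-sulfur clusters close to the quinone site. Ndufs8 had a log2 intensity of 10.52, 10.48 and 10.52 in the untreated arrays, 10.47, 10.53 and 10.43 at 30 min, 10.54, 10.54 and 10.53 at 1 h and 10.51, 10.47 and 10.47 at 2 h. The later Ndufs8 arrays had 10.57, 10.55 and 10.53 at 6 h, 10.46, 10.73 and 10.64 at 12 h, 10.55, 10.60 and 10.70 at 24 h, 10.85, 10.70 and 10.75 at 36 h and 10.79, 10.66 and 10.70 at 48 h. The untreated arrays lay close together, and the arrays of 1, 6, 24, 36 and 48 h were above them although the changes at 1 and 6 h were 0.028 ± 0.063 and 0.041 ± 0.063. Ndufs8 rose by 0.26 ± 0.063 after 36 h (adjusted p = 0.00359) and by 0.21 ± 0.063 after 48 h (adjusted p = 0.0175). The 48 h call ended without the untreated replicate 2 or the 48 h replicate 1 (0.19 and 0.17).

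In the probe set used, Ndufs3, a core subunit without a cofactor, had another course. Ndufs3 had a log2 intensity of 10.95, 10.91 and 10.96 in the untreated arrays, 10.91, 10.88 and 10.88 at 30 min, 10.91, 10.89 and 10.94 at 1 h and 10.87, 10.93 and 10.96 at 2 h. The later Ndufs3 arrays had 10.82, 10.90 and 10.77 at 6 h, 10.79, 10.86 and 10.85 at 12 h, 10.94, 10.96 and 10.93 at 24 h, 11.04, 10.998 and 11.06 at 36 h and 11.07, 10.98 and 10.94 at 48 h. All 3 arrays at 6 h and at 12 h lay below the untreated ones, and all 3 at 36 h above them. Its second probe set, also called at no single time, had smaller early falls. These were -0.050 ± 0.053 at 6 h and -0.048 ± 0.053 at 12 h, and its change at 36 h was 0.15 ± 0.053. Ndufs3 passed the F-test over the course (adjusted p = 0.0246) but at no single time was it called: its change was -0.11 ± 0.052 after 6 h (adjusted p = 0.159) and 0.095 ± 0.052 after 36 h (adjusted p = 0.226). Ndufs7, which passes electrons to ubiquinone, had a mean log2 intensity of 11.94 over all arrays, and the 95% interval of its change at 36 h ran from -0.11 to 0.094. Ndufs1 and Ndufv2 had changes of 0.072 ± 0.088 and 0.11 ± 0.066 at 36 h and were called at no time.

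Of the 9 accessory subunits of the matrix arm, 5 rose at 36 h and at 48 h: Ndufa5, Ndufa6, Ndufa7, Ndufs6 and Ndufv3. At 24 h 3 rose and at 12 h 2, and the median change was 0.26 at 36 h.

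Ndufa5 sits beside the core subunits that lead to the quinone site. Ndufa5 had a log2 intensity of 7.32, 7.12 and 7.10 in the untreated arrays, 7.06, 7.10 and 7.16 at 30 min, 7.22, 7.07 and 7.26 at 1 h and 7.18, 7.31 and 7.23 at 2 h. The later Ndufa5 arrays had 7.29, 7.30 and 7.36 at 6 h, 7.47, 7.76 and 7.51 at 12 h, 7.73, 7.59 and 7.56 at 24 h, 7.54, 7.74 and 7.73 at 36 h and 7.70, 7.51 and 7.60 at 48 h. From 12 h on every treated array was above every untreated one, and before that each group overlapped the untreated arrays. Ndufa5 rose by 0.40 ± 0.081 after 12 h (adjusted p = 0.000704) and by 0.49 ± 0.081 after 36 h (adjusted p = 5.54e-05).

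Ndufa6 is a small protein that anchors an acyl carrier protein to the matrix arm. Ndufa6 had a log2 intensity of 9.26, 9.31 and 9.25 in the untreated arrays, 9.22, 9.09 and 9.12 at 30 min, 9.17, 9.31 and 9.28 at 1 h and 9.34, 9.23 and 9.30 at 2 h. The later Ndufa6 arrays had 9.22, 9.19 and 9.27 at 6 h, 9.28, 9.39 and 9.28 at 12 h, 9.50, 9.41 and 9.53 at 24 h, 9.52, 9.53 and 9.55 at 36 h and 9.52, 9.58 and 9.46 at 48 h. Its 30 min arrays lay below the untreated ones, and those of 24, 36 and 48 h above them. Ndufa6 was called at these 3 late times, with a change of 0.26 ± 0.058 after 36 h (adjusted p = 0.00137).

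Ndufs6 binds zinc and joins the NADH-oxidising module late in assembly. Ndufs6 had a log2 intensity of 8.07, 8.19 and 8.13 in the untreated arrays, 8.07, 8.17 and 8.06 at 30 min, 8.21, 8.10 and 8.16 at 1 h and 8.20, 8.17 and 8.14 at 2 h. The later Ndufs6 arrays had 8.20, 8.23 and 8.49 at 6 h, 8.27, 8.50 and 8.52 at 12 h, 8.36, 8.24 and 8.26 at 24 h, 8.61, 8.57 and 8.42 at 36 h and 8.64, 8.44 and 8.45 at 48 h. Its treated arrays were above the untreated ones from 6 h on. Ndufs6 was called after 12 h (0.30 ± 0.080, adjusted p = 0.00762), 36 h (0.40 ± 0.080, adjusted p = 0.000457) and 48 h (0.38 ± 0.080, adjusted p = 0.000731), and was 0.16 ± 0.080 after 24 h (adjusted p = 0.186).

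Ndufa7 lies beside the core subunits of this arm. Ndufa7 had a log2 intensity of 9.22, 9.23 and 9.26 in the untreated arrays, 9.20, 9.26 and 9.10 at 30 min, 9.22, 9.25 and 9.17 at 1 h and 9.11, 9.14 and 9.21 at 2 h. The later Ndufa7 arrays had 9.26, 9.23 and 9.23 at 6 h, 9.24, 9.50 and 9.50 at 12 h, 9.31, 9.38 and 9.45 at 24 h, 9.78, 9.48 and 9.61 at 36 h and 9.56, 9.44 and 9.37 at 48 h. The arrays of 24, 36 and 48 h were above the untreated ones and those of 2 h below. Ndufa7 rose by 0.39 ± 0.075 after 36 h (adjusted p = 0.000405) and by 0.22 ± 0.075 after 48 h (adjusted p = 0.0355), the latter lost without any 1 of the 3 untreated arrays or the 48 h replicates 1 and 2 (0.17 to 0.23). Ndufv3, which lies on the NADH-oxidising module, was called at 24, 36 and 48 h, with 0.44 ± 0.096 at 36 h and 0.27 ± 0.096 at 48 h. Its 48 h change was 0.15 without the untreated replicate 1 and that call also ended without the untreated replicate 3 or any 1 of the 48 h arrays (0.25 to 0.28). Against the 30 min arrays, its changes were 0.25, 0.25 and 0.077 and none was called. Ndufs4, whose loss causes a Leigh-like brain disease in mice, Ndufa9, Ndufa2 and Ndufa12 were called at no time. The changes of Ndufa12 were -0.25 ± 0.081 at 1 h and 0.14 ± 0.081 at 36 h, and it passed the F-test (adjusted p = 0.00284).

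Of the membrane arm's accessory subunits, 2 of 18 rose after 6 h, 7 after 12 h, 12 after 24 h, 15 after 36 h and 10 after 48 h. The 3 not called at 36 h, Ndufa10, Ndufb4 and Ndufb9, had changes of 0.12 ± 0.056, 0.11 ± 0.056 and 0.12 ± 0.058. The median change of the 18 was 0.32 at 36 h.

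Ndufb6 lies in the far part of the membrane arm. Ndufb6 had a log2 intensity of 10.73, 10.65 and 10.62 in the untreated arrays, 10.69, 10.69 and 10.69 at 30 min, 10.69, 10.81 and 10.77 at 1 h and 10.68, 10.79 and 10.84 at 2 h. The later Ndufb6 arrays had 10.79, 10.93 and 10.89 at 6 h, 10.98, 11.10 and 11.04 at 12 h, 11.20, 11.16 and 11.21 at 24 h, 11.21, 11.05 and 11.12 at 36 h and 11.19, 10.97 and 10.97 at 48 h. The arrays of 30 min, 1 h and 2 h overlapped the untreated ones and all later arrays were above them. Ndufb6 rose by 0.20 ± 0.066 after 6 h (adjusted p = 0.0384) and by 0.52 ± 0.066 after 24 h (adjusted p = 1.78e-06), its largest change. The 6 h call ended without the untreated replicate 2 or 3 or the 6 h replicate 2 or 3 (0.17 to 0.19).

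Ndufs5 faces the space between the membranes and is held by disulfide bonds. Ndufs5 had a log2 intensity of 7.76, 7.77 and 7.76 in the untreated arrays, 7.47, 7.73 and 7.72 at 30 min, 7.48, 7.65 and 7.52 at 1 h and 7.72, 7.82 and 7.75 at 2 h. The later Ndufs5 arrays had 7.79, 7.67 and 7.74 at 6 h, 7.87, 8.10 and 8.04 at 12 h, 8.24, 8.04 and 8.27 at 24 h, 8.46, 8.07 and 8.28 at 36 h and 8.34, 8.27 and 8.06 at 48 h. Its 3 untreated arrays were almost equal; all arrays of 30 min and 1 h lay below them and all from 12 h on above. Ndufs5 rose by 0.42 ± 0.093 after 24 h (adjusted p = 0.00154) and by 0.51 ± 0.093 after 36 h (adjusted p = 0.000203), while its change at 1 h was -0.21 ± 0.093 (adjusted p = 0.43). Another probe set carries both Ndufs5 and its pseudogene Ndufs5-ps and was not used, and signals of the pair in the probe set used here may mix. The same holds for Ndufs6, Ndufa11 and Ndufb4, whose near copies Ndufs6b, Ndufa11b, Ndufb4b and Ndufb4c are in the RefSeq table.

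Ndufa3 crosses the membrane in the part of this arm that carries the matrix arm. Ndufa3 had a log2 intensity of 8.25, 8.36 and 8.49 in the untreated arrays, 8.44, 8.50 and 8.46 at 30 min, 8.36, 8.42 and 8.50 at 1 h and 8.46, 8.40 and 8.41 at 2 h. The later Ndufa3 arrays had 8.48, 8.61 and 8.54 at 6 h, 8.63, 8.60 and 8.62 at 12 h, 8.80, 8.73 and 8.76 at 24 h, 8.96, 8.86 and 8.76 at 36 h and 8.91, 8.81 and 8.76 at 48 h. Every array from 12 h on exceeded the untreated ones. Ndufa3 was called after 12 h (0.25 ± 0.065, adjusted p = 0.00773), a call lost without the untreated replicate 1 (0.19), with the 6 arrays compared alone and against the 30 min arrays (0.15), and it rose by 0.49 ± 0.065 after 36 h (adjusted p = 2.57e-06).

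Ndufa11 lies where complex I meets complex III in the joint assemblies of the respiratory chain. Ndufa11 had a log2 intensity of 10.21, 10.22 and 10.19 in the untreated arrays, 10.23, 10.21 and 10.13 at 30 min, 10.23, 10.35 and 10.26 at 1 h and 10.24, 10.22 and 10.22 at 2 h. The later Ndufa11 arrays had 10.33, 10.22 and 10.33 at 6 h, 10.37, 10.57 and 10.52 at 12 h, 10.48, 10.49 and 10.54 at 24 h, 10.66, 10.53 and 10.59 at 36 h and 10.48, 10.45 and 10.47 at 48 h. Its untreated arrays were close together and all arrays from 1 h on were above them, though the changes at 1, 2 and 6 h were no larger than 0.086 ± 0.058. Ndufa11 rose by 0.28 ± 0.058 after 12 h (adjusted p = 0.000941) and 0.39 ± 0.058 after 36 h (adjusted p = 1.48e-05). Its second probe set changed by 0.36 ± 0.075 at 36 h, with the same calls at 12, 24, 36 and 48 h. For other members the sets differed: the second Ndufb5 set was called at no time and had -0.18 ± 0.16 at 24 h, and the second Ndufb11 set was not called at 24 h (0.12 ± 0.055) but was at 36 and 48 h (0.29 ± 0.055 at 48 h). The second Ndufc1 set was called at 12, 24 and 36 h (0.30 ± 0.070 at 12 h) and not at 48 h (0.16 ± 0.070). The Ndufc1 set used was called at 24, 36 and 48 h and not at 12 h.

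Ndufa8, another disulfide-bonded subunit, rose after 6 h (0.23 ± 0.062, adjusted p = 0.0114) and at each later time. Its 6 h call ended without the untreated replicate 1 or the 6 h replicate 2 (0.20 for each). Ndufb3, Ndufb10 and Ndufb7 rose by 0.48 ± 0.12, 0.42 ± 0.080 and 0.39 ± 0.096 at 36 h. Against the 30 min arrays Ndufb7 had 0.21 at 36 h and was not called. Ndufb2 and Ndufb8 were called at 36 h alone (0.32 ± 0.083 and 0.27 ± 0.087) and did not pass the F-test. The Ndufb8 call ended without the 36 h replicate 1 (0.17) or the untreated replicate 2 or 3 (0.26 and 0.24), and that of Ndufb2 against the 30 min arrays (0.18). Ndufb11 and Ndufc2 had small changes that were called at 36 h, 0.19 ± 0.054 and 0.20 ± 0.059. Ndufa1, Ndufb5 and Ndufc1 were called at 24 and 36 h, with changes of 0.33 ± 0.085, 0.23 ± 0.070 and 0.28 ± 0.066 at 36 h. Ndufa1 and Ndufc1 were also called at 48 h (0.31 and 0.19). That call of Ndufa1 ended without the untreated replicate 2 or the 48 h replicate 1 (0.25 and 0.21). That of Ndufc1 ended with the replicate number as a block, against the 30 min arrays (0.17) and without the untreated replicate 1 (0.15), among other settings. The 24 h calls of Ndufa1 and Ndufc1 and the 36 h calls of Ndufb5, Ndufb11 and Ndufc2 each ended without 1 array or another, with changes of 0.15 to 0.27, and with the mean of its probe sets Ndufb5 had 0.0485 at 24 h and was not called.

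Ndufab1, the mitochondrial acyl carrier protein, is part of complex I and also serves mitochondrial fatty acid synthesis, from which lipoic acid is made. Ndufab1 had a log2 intensity of 9.46, 9.44 and 9.31 in the untreated arrays, 9.47, 9.37 and 9.45 at 30 min, 9.41, 9.60 and 9.53 at 1 h and 9.42, 9.51 and 9.62 at 2 h. The later Ndufab1 arrays had 9.54, 9.59 and 9.66 at 6 h, 9.75, 9.84 and 9.63 at 12 h, 9.67, 9.65 and 9.72 at 24 h, 9.79, 9.60 and 9.73 at 36 h and 9.67, 9.59 and 9.53 at 48 h. All arrays from 6 h on were above the untreated ones. Ndufab1 rose by 0.34 ± 0.071 after 12 h (adjusted p = 0.00113) and by 0.30 ± 0.071 after 36 h (adjusted p = 0.00244). Its call after 48 h (0.19 ± 0.071, adjusted p = 0.0478) was lost in 24 of 38 other settings, among them leaving out any 1 untreated array or the 48 h replicate 1 or 2 (0.15 to 0.22).

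Ndufa4, once counted with complex I and now with cytochrome c oxidase, was called at no time. Ndufa4 had a log2 intensity of 10.16, 10.13 and 10.10 in the untreated arrays, 10.03, 10.01 and 10.03 at 30 min, 9.92, 10.05 and 10.01 at 1 h and 10.02, 10.01 and 10.16 at 2 h. The later Ndufa4 arrays had 10.04, 10.04 and 10.24 at 6 h, 10.25, 10.38 and 10.23 at 12 h, 10.19, 10.15 and 10.15 at 24 h, 10.20, 10.26 and 10.11 at 36 h and 10.34, 10.11 and 10.12 at 48 h. Its arrays of 30 min and 1 h lay below the untreated ones, those of 12 h above, and the others overlapped them. Ndufa4 passed the F-test (adjusted p = 0.0233), with changes of -0.14 ± 0.070 after 1 h (adjusted p = 0.537) and 0.15 ± 0.070 after 12 h (adjusted p = 0.139). Ndufa4l2, its paralog, is induced when oxygen is low. Ndufa4l2 had a log2 intensity of 3.28, 3.67 and 3.63 in the untreated arrays, 3.61, 3.53 and 3.86 at 30 min, 3.54, 3.54 and 3.40 at 1 h and 3.75, 3.67 and 3.55 at 2 h. The later Ndufa4l2 arrays had 3.37, 3.44 and 3.60 at 6 h, 3.40, 3.40 and 3.32 at 12 h, 3.70, 3.56 and 3.57 at 24 h, 3.72, 3.49 and 3.52 at 36 h and 3.58, 3.62 and 3.48 at 48 h. These levels were among the low values of the array and overlapped the untreated ones at every time. Ndufa4l2 did not pass the F-test (adjusted p = 0.184).

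**Figure D3:**
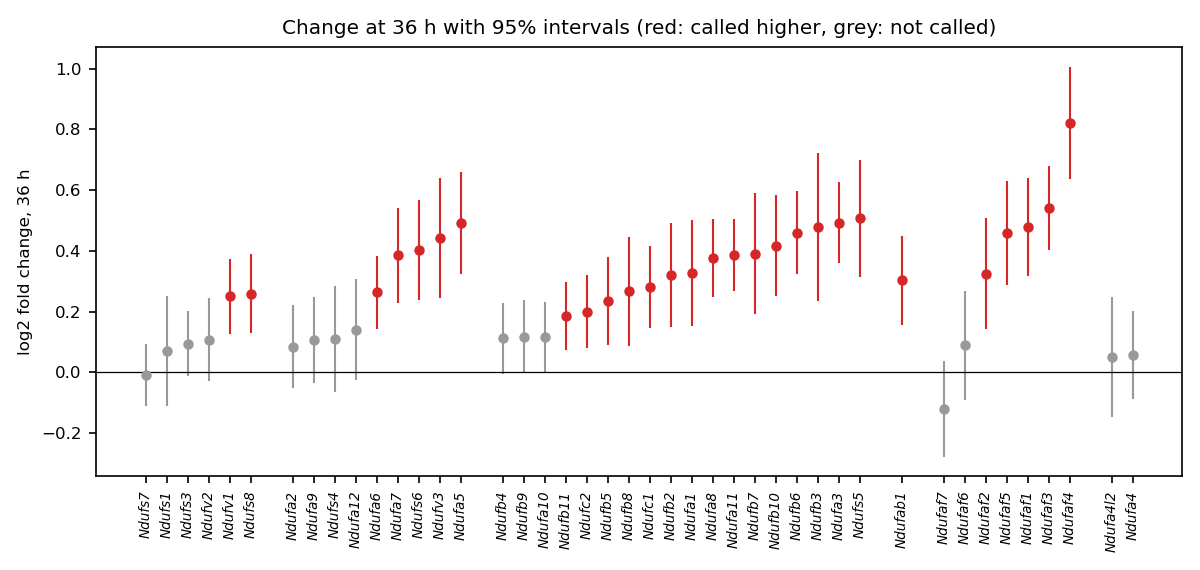
Log2 change at 36 h (vertical axis) of the 43 members, ordered within core, matrix arm, membrane arm, acyl carrier, assembly factors and the Ndufa4 pair from left to right; bars are 95% intervals of the linear model, red is called higher and grey not called. The assembly factors run from Ndufaf7 at -0.12 to Ndufaf4 at 0.82.

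The changes at 36 h were also set beside the intensities, split at a mean log2 intensity of 10, a value chosen after the data were seen. Of 16 members above it, 7 were called at 36 h with a median change of 0.12 for the 16, and of 27 at or below it 21 were called, with a median of 0.33. Whether the array's response to bright signals plays a part was not tested. Intensities of different probe sets do not rank the genes by amount of RNA.

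Other genes of complex I outside the name rule moved in both directions. Of 19 assembly and mitochondrially encoded genes listed, 11 were measured, of which 7 rose and 1 fell at 12 h, 5 rose and 1 fell at 36 h, and 6 rose and 2 fell at 48 h. The mitochondrially encoded subunits and Coa1 were not analysed here. Dmac2, an assembly factor of the membrane arm, rose by 0.81 ± 0.10 after 36 h (adjusted p = 9.18e-07). Timmdc1 and Ecsit, both needed to build the membrane arm, rose by 0.43 ± 0.063 and 0.43 ± 0.074 (adjusted p = 1.33e-05 and 9.89e-05). Foxred1 was called higher at 12, 24, 36 and 48 h, with a change of 0.31 ± 0.065 at 36 h. Lyrm2, a matrix protein linked to the NADH-oxidising module, had a change of -0.49 ± 0.087 after 36 h (adjusted p = 0.00013) and was lower from 6 h on. Acad9, an assembly factor of the membrane arm, rose by 0.24 ± 0.071 after 12 h (adjusted p = 0.0182) and was lower after 48 h (-0.22 ± 0.071, adjusted p = 0.022). No member of the name rule had such a fall.

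Many regulators of respiratory genes rose. Of 10 measured, 1 rose after 1 h, 3 after 2 h, 2 after 6 h, 6 after 12 h, 7 after 24 h, 6 after 36 h and 6 after 48 h. Ppargc1b, a coactivator of mitochondrial genes, rose by 0.88 ± 0.085 after 6 h (adjusted p = 9.07e-08) and by 0.73 ± 0.085 at 36 h. Tfam, which packs mitochondrial DNA and starts its transcription, rose by 0.50 ± 0.077 after 6 h (adjusted p = 4.56e-05) and 0.62 ± 0.077 at 36 h. Ppargc1a was 0.28 ± 0.14 after 6 h (adjusted p = 0.175) and higher by 0.76 ± 0.14 at 36 h. Nrip1, a corepressor of such genes, had a change of -0.44 ± 0.084 after 48 h (adjusted p = 0.000284) and fell from 24 h on, after rises of 0.45 ± 0.084 at 1 h and 0.33 ± 0.084 at 2 h.

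Some genes of complexes II to V and of the mitochondrial ribosome rose too. Of 46 genes of complexes II to V, 2 rose after 6 h, 7 after 12 h, 12 after 24 h, 17 after 36 h and 11 after 48 h, and 1 fell at each time from 12 h on; their median change was 0.15 at 36 h. Of 74 mitochondrial ribosomal proteins, 22 rose after 6 h, 34 after 12 h, 24 after 24 h, 39 after 36 h and 25 after 48 h, with a median change of 0.25 at 36 h, and none was called lower. The corresponding counts for complex I were 5, 15, 21, 28 and 23 of 43, with a median of 0.27 at 36 h. The largest change in these lists at 36 h was 1.41 ± 0.089 for Cox7a1, of complexes II to V, above that of any complex I gene. The difference between these groups of genes was not tested.

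**Figure D4:**
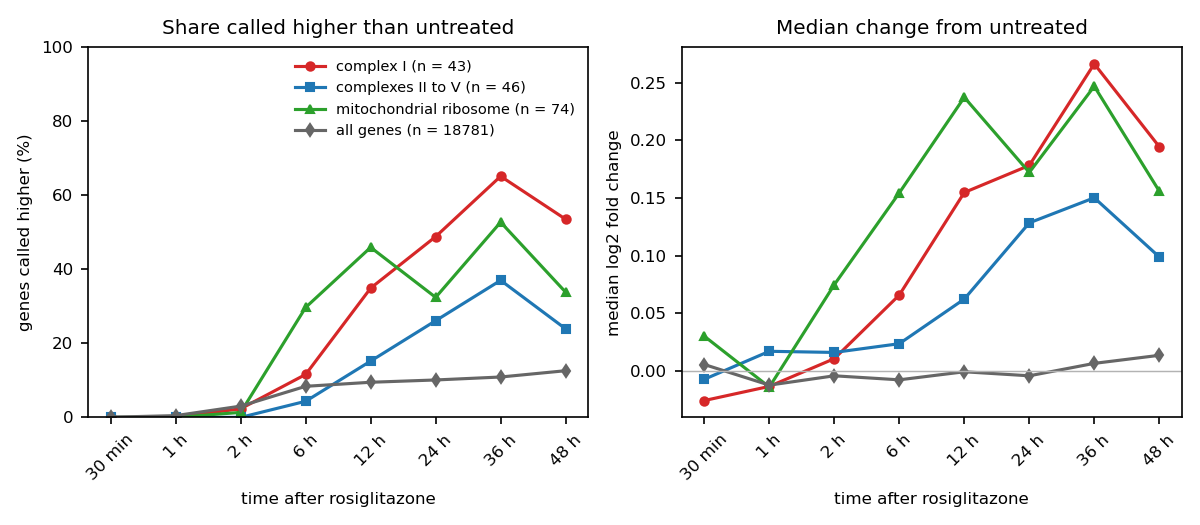
Share of genes called higher than untreated (left, percent) and median log2 change (right) at the 8 times after rosiglitazone for complex I, complexes II to V, the mitochondrial ribosome and all genes. At 6 h the mitochondrial ribosome has the highest share, and at 36 h complex I has 28 of 43 members called.

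Markers of undifferentiated cells moved with these counts. Of 4 measured markers of preadipocytes and fibroblasts, 2 were called lower after 6 h, 4 after 24 h and 3 after both 36 and 48 h, and the log2 of their summed intensity lay between 11.34 and 11.40 in untreated arrays and between 10.83 and 10.90 at 36 h. The same sum for 8 adipocyte markers lay between 14.37 and 14.44 in untreated arrays and between 14.48 and 14.50 at 36 h, when 3 were called higher and 1 lower. None of the 5 macrophage markers rose at any time; Lyz2 was the 1 called lower at 36 h, and their log2 sum lay between 6.31 and 6.55 in untreated arrays and between 6.19 and 6.30 at 36 h. Sums of 3 endothelial and 3 muscle markers stayed between 4.62 and 4.93 and between 5.44 and 5.90 over all arrays. In these bulk samples fewer cells of a type and less RNA per cell cannot be told apart, and the part of these markers in the complex I changes was not tested.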

How the data were processed

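Total RNA of 27 samples was hybridised to Affymetrix Mouse Gene 1.1 ST arrays, 3 in each of 9 groups. The authors deposited log2 intensities, 1 value per probe set and array; the submitters' processing notes name Partek and RMA, and the genome build of the probe sets is not given in the sources used here. Of 28815 probe sets, 21153 carried 1 symbol in the platform annotation, 1867 carried several and 5795 none; those with 1 symbol gave 18781 genes, each by its probe set of highest mean. The deposited values were used without further scaling. The number of arrays limits the precision; the median SE of a change was 0.0711 over the members and 0.0877 over all genes.

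A linear model with 9 group means was fitted to all 27 arrays by the lmFit and eBayes functions of limma 3.58.1 (R 4.3.3), with p-values adjusted by Benjamini-Hochberg over all genes. It had no term for the replicate number. The members checked had equal means for the 3 replicate numbers in the deposited values. For such values this model understates the scatter, so its SE and p tend to be too small. The 8 times were compared with the untreated arrays, neighbouring times from 2 h on with each other, and a moderated F-test covered the course. The fit was tested on simulated data with known changes. Promoter letters were searched in Python 3.11.15. Genes given with every array were, in each role, up to 4 that passed the F-test with the smallest p, plus Ndufa4, Ndufa4l2 and Ndufab1. In the other lists, genes with small F-test p were named, but not every such gene. Acad9 was named for its fall at 48 h, and no gene of the mitochondrial ribosome was named. Members, lists and tests were chosen with earlier results of these data known. Alternatives were a replicate block, centring, quantile normalization, a trended and robust prior, genes above the median mean, the mean of probe sets, the 6 arrays compared alone, and 1 replicate of every group left out; after the data were seen, a 30 min baseline and each single array left out were added.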

Additional observations from a re-analysis of the deposited data

Results flagged for a closer look

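Between neighbouring times, which do not use the untreated arrays, 2 changes of complex I genes passed the test, both in assembly factors. Ndufaf4 rose from 2 h to 6 h by 0.51 ± 0.090 (adjusted p = 0.000509, limma, n = 3 arrays a time). Ndufaf3 rose from 6 h to 12 h by 0.34 ± 0.067 (adjusted p = 0.00974). The number of such calls fell to 1 when either the 6 h replicate 1 or the 12 h replicate 3 was left out.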

How the results depend on the processing

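Over 38 alternative settings, 351 of 376 recomputed counts of called members stayed within 1.5 times the reported count. Many of these counts could hardly move. They include those at 30 min and 1 h, which were 0, and most single arrays left out belonged to neither group of a comparison. The share kept is therefore no measure of how firm the counts are. Of 57 calls at a time of the genes given with every array, 32 were kept in every setting and none changed sign. Most of these genes were picked for the smallest F-test p in these data. Calls of the other members are not in the 57, and most of those ended in at least 1 setting. At 2 h the count was 2, against 1, with genes above the median mean, and 1 to 2 with arrays left out. At 6 h it was 10, against 5, with arrays centred on their medians, 8 with genes above the median mean and 3 with the 6 arrays compared alone. Leaving out 1 replicate of every group gave 1 to 3 at 6 h, 5 to 15 at 12 h, 10 to 14 at 24 h, 21 to 23 at 36 h, 13 to 16 at 48 h and 21 to 22 by the F-test, against 33. With any single array left out as well, the ranges were 1 to 6, 5 to 16, 10 to 22, 21 to 28, 13 to 24 and 21 to 35. Calls between neighbouring times numbered 5, against 2, with a trended and robust prior and with genes above the median mean, 1 with the 6 arrays alone, and 1 to 3 with arrays left out. Centring raised the share of higher genes among all genes called at 6 h (50.6% against 65.6%) and 48 h (52.5% against 65.8%). Members were called lower in 3 settings: Ndufaf7 at 36 h without replicate 3 of every group (-0.26), and Ndufa4l2 at 12 h with the 30 min baseline (-0.29) and without the untreated replicate 1 (-0.27). The causes of these shifts were not tested, beyond the fewer genes or arrays used. Arrays with the same replicate number were not alike in their deviations from the group means. Of 24 same-number pairs of an untreated and a treated array, 1 had a correlation over 0.1. Their correlations ran from -0.45 to 0.10, and those of pairs with different numbers from -0.16 to 0.36. Of 27 arrays, 0 correlated best with their own number. In the members checked, the replicate numbers had equal means in the deposited values. For such values the deviations of the arrays with the same number cancel out over the groups, which lowers same-number correlations. These correlations therefore cannot show whether arrays with the same number shared a culture or a batch. Whether equal means account for all of the low same-number values was not tested. With the replicate number as a block, 4 members were called at 6 h, 28 at 36 h, 19 at 48 h and 27 by the F-test. Without it these were 5, 28, 23 and 33. The block is the setting that allows for equal means of the replicate numbers. Dim genes such as Ndufa4l2 are limited by signal over background.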
